A study of Homo sapiens with 8 samples.

Results

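This account sets one array of A375 cells that received an siRNA against BRAF beside one array of A375 cells that received an siRNA against ATF4, 2 of the 8 arrays of the series. A375 is an established human melanoma line with an activating mutation in the kinase BRAF. Both cultures were kept for 18 h in the same normal medium, RPMI1640 with 10% fetal bovine serum and kanamycin, so that each array is one treated culture and neither stands as the untreated control of the other. The siBRAF and siATF4 siRNAs, how long before harvest they were given and whether cells were pooled are not described further in the labels. The array of cells with the nontargeting siRNA (siCont) in the same medium was left out of the difference, and its value is printed beside the other 2. For a second, separate difference 4 further arrays were used, siBRAF and siCont in glutamine-free medium for 18 h, and siATF4 and siCont with 10 uM of the BRAF inhibitor vemurafenib for 4 h.

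BRAF is a kinase of the MAP kinase cascade, which runs from RAS through MEK to ERK. In melanoma with an activated BRAF the cascade signals without a growth factor, and ERK then drives the genes of cell division together with a set of its own feedback inhibitors. ATF4 is a transcription factor whose translation increases when amino acids are short or the endoplasmic reticulum is stressed, and it switches on genes that make, import and charge amino acids. The comparison asks where loss of the one and loss of the other left these cells at different transcript levels. With 1 array a condition there is no replicate, no spread between cultures and no p-value, and every difference below describes this pair of arrays. A higher or lower level can also come from a different mix of cells or a different amount of RNA per cell, which cannot be told apart in bulk RNA.

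Levels are array intensities on the linear scale, as deposited, and differences are siBRAF minus siATF4 of log2(intensity + 1). A difference of 1 is thus 2-fold, and the added 1 understates the difference of weak genes. All differences keep to log2, and fold values are the ratio of the 2 intensities. Of 19775 genes with a probe set of exactly 1 gene symbol, 13310 had a higher value that lay at or above the median over all probe sets of that array, and these are called passing. Median intensity was 14.8 to 15.5 on the 5 arrays without drug or vehicle and 36.4 to 36.9 on the 3 others, so no level of one set is put beside a level of the other. Integrity was alike on the arrays compared, since the actin control probes read 0.18 (log2) higher at the 3' end than at the 5' end with siBRAF, 0.20 with siATF4 and 0.16 with siCont. Among melanocyte markers SOX10, a transcription factor of the neural crest, read 1027 with siBRAF, 497 with siATF4 and 776 with siCont, and MITF, the lineage's central transcription factor, read 567 with siBRAF, 244 with siATF4 and 254 with siCont. The pigment genes MLANA (9.15 with siBRAF, 9.55 with siATF4 and 10.7 with siCont) and GPR143 lay below the array median on all 3, and TYR and PMEL lay close to it. Of the markers of other cell types 1 of 4 measured leukocyte markers, 2 of 5 endothelial, 3 of 5 keratinocyte and 6 of 7 fibroblast ones passed. PTPRC, which marks leukocytes, was at 3.07 with siBRAF, 2.66 with siATF4 and 2.89 with siCont, whereas the keratin KRT10 read 1417 with siBRAF, 1532 with siATF4 and 1371 with siCont and KRT14 147 with siBRAF, 105 with siATF4 and 182 with siCont. Summed over the list, leukocyte markers came to 49.1 with siBRAF, 40.6 with siATF4 and 55.4 with siCont, endothelial markers to 67.1, 69.6 and 63.7 on the same arrays, keratinocyte markers to 1599, 1666 and 1585, and fibroblast markers to 505, 284 and 275.

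The target of one siRNA could be read. ATF4 had an intensity of 1519 with siBRAF, 534 with siATF4 and 1814 with siCont, on the 1 probe set paired with it, so the siATF4 array lay 2.85-fold below the siBRAF array and kept a measurable level. The second siBRAF array, from glutamine-free medium, read 1498. No probe set is paired with BRAF alone in the annotation, so its level was not analysed here. The phosphatase DUSP6, which ERK induces and which in turn inactivates ERK, was 320.3 with siBRAF, 1642 with siATF4 and 1411 with siCont, a difference of -2.35, and its other probe sets gave -2.31 and -2.25. On DUSP6 the siATF4 and siCont arrays lie together and the siBRAF array below both.

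The siBRAF and siATF4 arrays lay far apart. Of the 13310 passing genes 806 (6.06%) were at least 2-fold higher with siBRAF and 1007 (7.57%) at least 2-fold lower, 1813 in all. At least 4-fold apart were 206 genes on the higher and 234 on the lower side, and at least 8-fold apart 73 and 46. Both arrays reached their medians for 646 of the higher and 880 of the lower genes, while the remainder were near background on one array, where the size of a difference depends on that background. The median difference was -0.02 and the SD across genes 0.79. For scale, the siBRAF array from glutamine-free medium differed at least 2-fold from the siBRAF array in normal medium for 16 of 13139 genes (0.122%), 6 higher and 10 lower, with an SD of 0.19. The siATF4 array differed from the siCont array for 113 of 13172 genes (0.858%), 62 higher and 51 lower, with an SD of 0.28. Among the 1813 genes apart, the siCont value was nearer to siATF4 for 1710 (94.3%) and nearer to siBRAF for 103. The same share was not counted over all 13310 passing genes, so this split is a description only. Of the 909 genes apart that have at least 2 passing probe sets, all probe sets gave the same sign in 842 (92.6%).

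**Figure D1:**
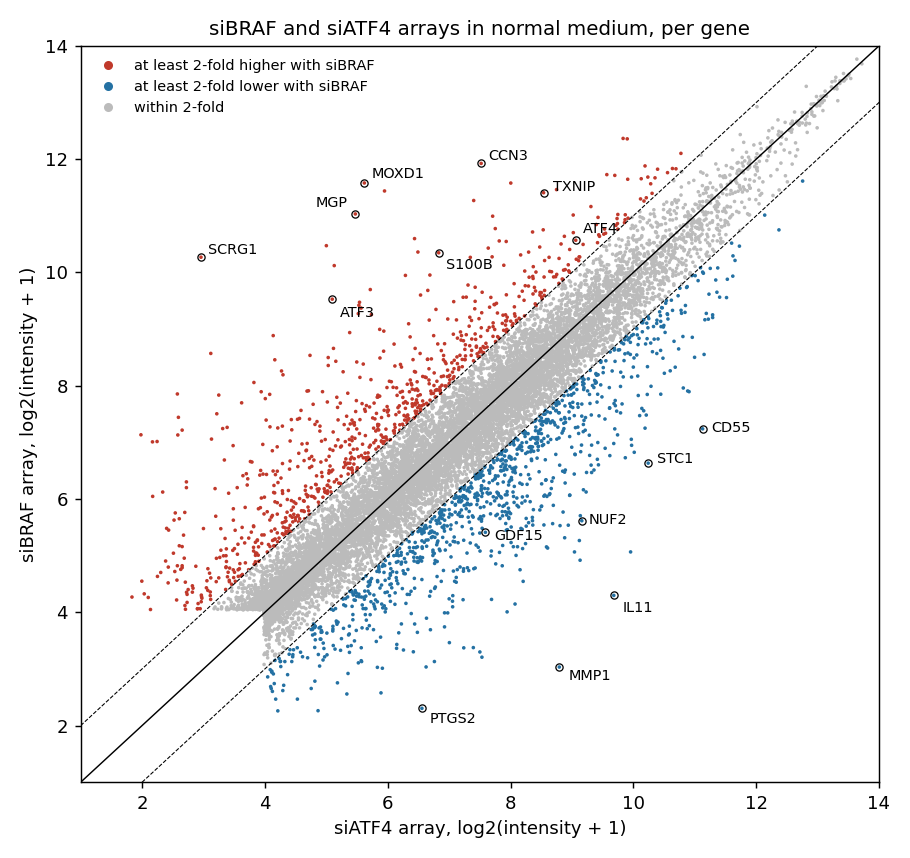
Each point is 1 of the 13310 passing genes, with its log2(intensity + 1) on the siBRAF array (vertical axis) and on the siATF4 array (horizontal axis), both in normal medium; dashed lines mark 2-fold. The 806 genes above the upper line include SCRG1, MOXD1, CCN3 and ATF4, and the 1007 below the lower line include IL11, MMP1, CD55 and NUF2.

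The 12 genes highest with siBRAF among those above the median on both arrays are given first. MOXD1, a monooxygenase-like protein of the endoplasmic reticulum, read 3061 with siBRAF, against 48.2 with siATF4 and 72.8 with siCont, which is 63.5-fold over siATF4. MGP, matrix Gla protein, an inhibitor of calcification, read 2095 with siBRAF, against 43.4 with siATF4 and 90.4 with siCont. POSTN, the matrix protein periostin, read 1113 with siBRAF, against 34.01 with siATF4 and 32.04 with siCont. For these genes the siATF4 and siCont values were both low and the siBRAF array stood alone. CCN3, a secreted matricellular protein, read 3889.8 with siBRAF, against 183 with siATF4 and 110.1 with siCont. MAF, a leucine zipper transcription factor, read 1549 with siBRAF, against 85.7 with siATF4 and 128 with siCont, and ATF3, a stress-induced transcription factor, read 738 with siBRAF, against 33.2 with siATF4 and 28.7 with siCont. The other 6 of the 12 highest, OLFML2A, GASK1B, ZNF536, FREM2, PGM2L1 and TMEM47, had differences from 3.98 to 5.49, and their siBRAF intensities ran from 306 to 2776 against 16.6 to 60.8 with siATF4. The siATF4 values of ZNF536 (16.6), FREM2 (16.9) and PGM2L1 (18.3) lay just above that array's median of 14.8, so their ratios depend on background. The siBRAF array from glutamine-free medium gave similar levels, for example 2374 for MOXD1 and 950.2 for ATF3. MOXD1, MGP, POSTN, ATF3, MAF and TMEM47 rest on probe sets that may read other transcripts. Without such sets the MGP, POSTN and ATF3 differences were 0.85, 0.79 and 0.57. These come from probe sets with a lower mean level, since each gene was read from its highest one.

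Some genes were near background with siATF4 and clearly present with siBRAF. SCRG1 read 1234 with siBRAF, against 6.78 with siATF4 and 17.2 with siCont, a difference of 7.31, the largest among all passing genes. The cadherin CDH6 read 379 with siBRAF, against 7.69 with siATF4 and 8.44 with siCont, and the water channel AQP4 read 139 with siBRAF, against 2.95 with siATF4 and 2.77 with siCont. TAC1, the precursor of substance P, read 231 with siBRAF, against 4.96 with siATF4 and 10.5 with siCont, the chemokine CXCL14 173 with siBRAF, against 5.03 with siATF4 and 5.91 with siCont, and NTRK2, the receptor of the neurotrophin BDNF, 128 with siBRAF, against 3.50 with siATF4 and 4.19 with siCont. For all 6 the siATF4 value lay below the array median, so only the direction and the presence of signal with siBRAF carry weight, and the ratio depends on background. Without probe sets that may read other transcripts the CXCL14 difference was 0.21.

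The 12 genes lowest with siBRAF on the same terms were led by IL11. This cytokine of the IL-6 family read 18.7 with siBRAF, against 820.5 with siATF4 and 251 with siCont, 43.9-fold lower with siBRAF than with siATF4. Its siBRAF value lay just above that array's median of 15.5, so the ratio depends on background. TMEM158, a membrane protein induced by RAS signalling, read 32.5 with siBRAF, against 992 with siATF4 and 370.3 with siCont. CD55, which protects cells from complement, read 150.1 with siBRAF, against 2237 with siATF4 and 1489.9 with siCont. NT5E (CD73), the ectoenzyme that makes adenosine, read 37.5 with siBRAF, against 556 with siATF4 and 412 with siCont. STC1, the hormone stanniocalcin, read 98.3 with siBRAF, against 1210.0 with siATF4 and 351 with siCont, and PTGES, which makes prostaglandin E2, read 38.9 with siBRAF, against 471 with siATF4 and 238 with siCont. In IL11, STC1 and PTGES the 3 arrays form 3 steps, with siCont in the middle, whereas for NUF2 (48.1 with siBRAF, against 571 with siATF4 and 572 with siCont), a part of the kinetochore, the siATF4 and siCont arrays read nearly the same. For IL11, STC1 and PTGES siATF4 minus siCont was 1.70, 1.78 and 0.98 in normal medium. In vemurafenib it was -0.49, 1.12 and 0.45. The other 5 of the 12 lowest, SLCO4A1, COL13A1, LINC00973, ANXA10 and ACOX2, had differences from -4.21 to -3.47. LINC00973 read 16.7 with siBRAF, also just above that array's median. CD55, STC1, PTGES, SLCO4A1 and COL13A1 rest on probe sets that may read other transcripts. Lower with siBRAF and below the array median there were the collagenase MMP1 (7.19 with siBRAF, against 443 with siATF4 and 143 with siCont), the urea transporter SLC14A1 (8.24 with siBRAF, against 184 with siATF4 and 77.3 with siCont), the cyclooxygenase PTGS2 (3.94 with siBRAF, against 93.2 with siATF4 and 24.6 with siCont), the IL-33 receptor IL1RL1, ADGRF1 and KIAA0040.

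**Figure D2:**
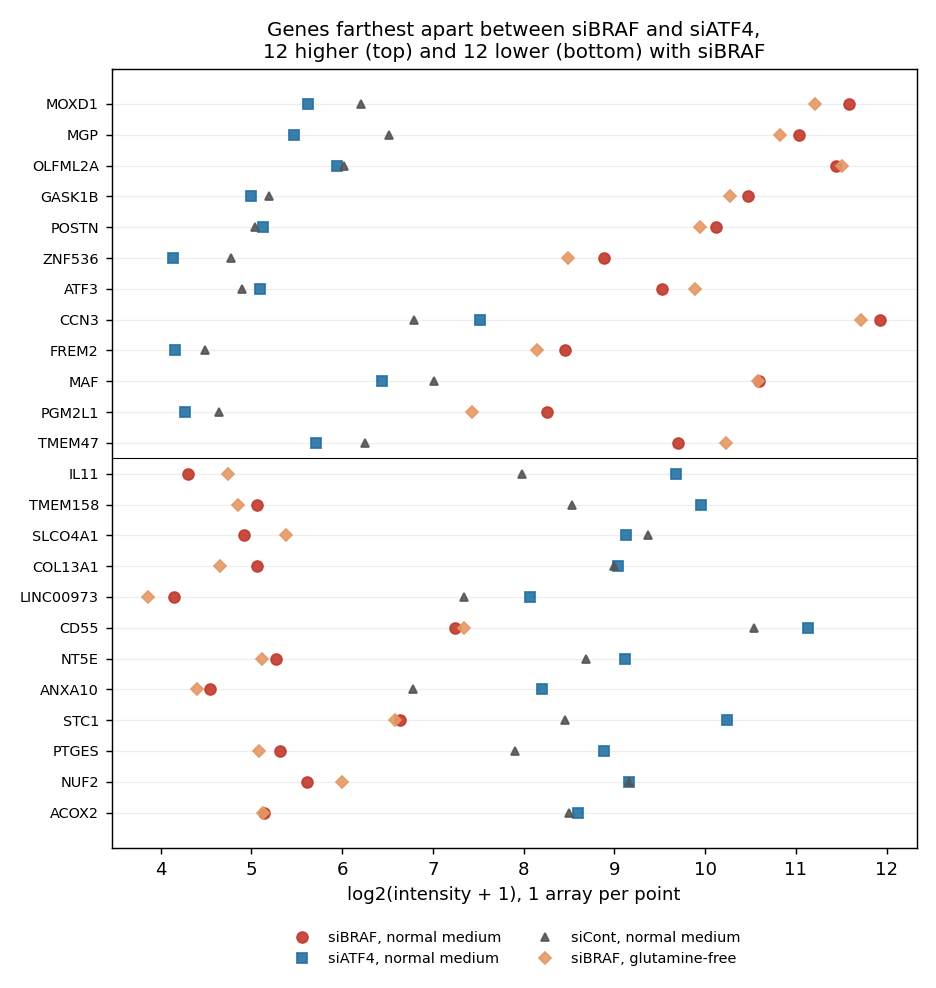
The horizontal axis is log2(intensity + 1) and each point is 1 array: siBRAF, siATF4 and siCont in normal medium and siBRAF in glutamine-free medium. Rows are the 12 genes highest (top) and the 12 lowest (bottom) in siBRAF minus siATF4 among genes above the median on both arrays; the siBRAF arrays lie together, and for IL11, TMEM158, ANXA10 and STC1 the siCont point stands apart from the siATF4 point.

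Genes that report the output of ERK signalling were lower with siBRAF as a group. Of 31 measured ERK output genes 30 passed, and 21 of these lay at least 2-fold below siATF4 and 1 above it, beside 7.57% lower and 6.06% higher among all passing genes. Their median difference was -1.52 over the measured members against -0.02 over all passing genes. ETV4, an ETS transcription factor downstream of ERK, read 34.6 with siBRAF, against 383 with siATF4 and 394 with siCont, and ETV5 read 33.9 with siBRAF, against 292 with siATF4 and 327 with siCont. SPRY4, a feedback inhibitor of receptor kinase signalling, read 36.4 with siBRAF, against 162 with siATF4 and 225 with siCont, and CCND1, cyclin D1, which carries mitogenic signals to the cell cycle, read 287 with siBRAF, against 1075 with siATF4 and 835 with siCont. These 4 were chosen after their values were seen, as were the other genes marked by role below that are not among the 3 highest or lowest of their list. On these 4 the siATF4 array lay within 1.5-fold of siCont. Exceptions within the list were EGR1, an immediate early transcription factor, at 170.2 with siBRAF, against 80.3 with siATF4 and 95.6 with siCont, a difference of 1.07 (0.74 as the mean of its probe sets), and the growth factor gene HBEGF, at 106 with siBRAF, against 95.4 with siATF4 and 108 with siCont.

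The immediate early genes, which respond to many signals within minutes, did not differ as a block. Among 21 passing genes 3 (14.3%) lay at least 2-fold above siATF4 and 1 (4.76%) below, beside 6.06% and 7.57% of all passing genes. ATF3 is among the 3, and its call is lost without shared probe sets. On that setting 2 of 14 were higher and 1 lower, beside 6.09% and 7.7% of all passing genes. The list median was 0.16. JUN, a subunit of the AP-1 factor, read 3058 with siBRAF, against 256 with siATF4 and 243 with siCont, and FOSL2, another AP-1 subunit, read 394 with siBRAF, against 164 with siATF4 and 153 with siCont. In the opposite direction MAFF, a small MAF protein, read 81.9 with siBRAF, against 414 with siATF4 and 476 with siCont. FOS, the classical partner of JUN, read 23.7 with siBRAF, 22.8 with siATF4 and 23.4 with siCont, within 1.5-fold on all 3 arrays. Among AP-1 genes the siBRAF array thus combined a high JUN, a low FOSL1 (76.2 with siBRAF, 220.5 with siATF4 and 267 with siCont) and an even FOS.

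Mitotic genes were lower with siBRAF almost without exception. All 39 list genes passed, and 37 lay at least 2-fold below siATF4 and 0 above, beside 7.57% and 6.06% of all passing genes. Differences ran from -3.54 for NUF2 to -0.87 for CDC25B, with a list median of -2.72. BUB1, a kinase of the spindle checkpoint, read 25.9 with siBRAF, against 284 with siATF4 and 279 with siCont, and its difference of -3.40 was -1.27 as the mean of its probe sets. NEK2, a centrosome kinase, read 68.8 with siBRAF, against 600.0 with siATF4 and 520.5 with siCont. TOP2A, the topoisomerase that untangles chromosomes, read 123 with siBRAF, against 1003 with siATF4 and 1017 with siCont, and MKI67, the Ki-67 proliferation antigen, read 27.9 with siBRAF, against 216 with siATF4 and 239 with siCont. The phosphatase CDC25B, at 505 with siBRAF, 922 with siATF4 and 829 with siCont, and the checkpoint protein BUB3, at 887 with siBRAF, 1765 with siATF4 and 1856 with siCont, were the 2 members within 2-fold. The siATF4 values were close to those of siCont, with a list median of siATF4 minus siCont of 0.02. Without probe sets that may read other transcripts 26 members passed, of which 24 were at least 2-fold lower, with a median of -2.69.

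Promoters of mitotic genes carry a known pair of elements, the CHR and the CCAAT box, through which the DREAM complex and NF-Y act. In the 300 bases around the gene start, 250 before and 50 after, taken from RefSeq on GRCh38.p14 and read on both strands, TTTGAA (the CHR letters) was found for 21 of the 33 mitotic genes with a promoter entry (63.6%) and for 1836 of 15384 promoters of genes on the array (11.9%). The letters CCAAT were found for 24 of the 33 (72.7%) and for 36.1% of all. By direction, TTTGAA occurred in 159 of 811 promoters of genes lower with siBRAF (19.6%) and in 75 of 660 of genes higher (11.4%). A match describes letters and not a working site. The members with the largest differences that hold the letters are shown so that the element can be seen in place, 5′ to 3′ along the gene's strand, with the match in capitals (TTTGAA, or TTCAAA where it lies on the other strand).
NUF2 (chr1:163321930-163321983, plus strand): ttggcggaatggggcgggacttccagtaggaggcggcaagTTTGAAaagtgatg
BUB1B (chr15:40161006-40161091, plus strand): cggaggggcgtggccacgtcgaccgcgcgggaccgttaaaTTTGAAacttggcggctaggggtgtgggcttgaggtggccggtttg
TOP2A (chr17:40418002-40418087, minus strand): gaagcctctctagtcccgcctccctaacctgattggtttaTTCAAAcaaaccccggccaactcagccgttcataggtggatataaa

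DNA replication genes were lower with siBRAF as well, by smaller steps. All 40 measured S phase genes passed, and the list median was -1.74. With siBRAF 33 were at least 2-fold below siATF4 and 0 above, beside 7.57% and 6.06% of all passing genes. MCM10, which helps load the replication fork, read 30.9 with siBRAF, against 204 with siATF4 and 234 with siCont, and GINS1, a subunit of the replicative helicase, read 85.9 with siBRAF, against 525 with siATF4 and 488 with siCont. POLE2, a subunit of DNA polymerase epsilon, read 25.7 with siBRAF, against 159 with siATF4 and 165 with siCont. The members that stood apart were the clamp loader subunit RFC5, at 510.0 with siBRAF, 457 with siATF4 and 351 with siCont, and cyclin E1, CCNE1, at 144 with siBRAF, 139.6 with siATF4 and 144 with siCont, both higher or even with siBRAF. Cyclin E2, CCNE2, read 46.4 with siBRAF, against 242 with siATF4 and 233 with siCont, so the 2 E cyclins had unequal differences. The replication clamp PCNA, at 1060.3 with siBRAF, 1856 with siATF4 and 1895 with siCont, was within 2-fold.

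E2F factors, released when RB is phosphorylated, act on S phase promoters. Their site was searched as TTTCCCGC or TTTGGCGC on both strands of the same windows and was found for 17 of 35 S phase genes (48.6%) and 2.99% of all 15384 promoters. The 3 S phase genes farthest apart that hold it are given with the match in capitals, which in all 3 is read on the other strand.
GINS1 (chr20:25407638-25407702, plus strand): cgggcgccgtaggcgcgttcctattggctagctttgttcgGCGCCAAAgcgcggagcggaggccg
POLE2 (chr14:49688185-49688259, minus strand): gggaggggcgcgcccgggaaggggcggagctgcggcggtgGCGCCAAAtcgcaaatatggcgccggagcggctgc
UHRF1 (chr19:4909447-4909530, plus strand): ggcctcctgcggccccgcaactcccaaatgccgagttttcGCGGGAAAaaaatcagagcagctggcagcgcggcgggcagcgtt

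Targets of p53 lay on the higher side with siBRAF. All 18 measured genes passed, around a median of 0.77. With siBRAF 6 were at least 2-fold higher and 1 lower, beside 6.06% and 7.57% of all passing genes. Where probe sets that may read other transcripts were left out, 11 members passed, with 3 higher, 0 lower and a median of 0.64, and the 3 higher members lost had no other probe set. TP53INP1, a p53-induced cofactor, read 987 with siBRAF, against 77.2 with siATF4 and 63.5 with siCont, and ZMAT3, an RNA-binding p53 target, read 718 with siBRAF, against 171 with siATF4 and 138 with siCont. CDKN1A, the cell cycle inhibitor p21, read 3224 with siBRAF, against 1118 with siATF4 and 532 with siCont, where siATF4 also lay above siCont. BAX, a pore-forming cell death protein, read 698 with siBRAF, 405 with siATF4 and 334 with siCont, and MDM2, the ligase that degrades p53, 773 with siBRAF, 621 with siATF4 and 429.8 with siCont, both within 2-fold. The one gene far lower was GDF15, a stress cytokine, at 41.6 with siBRAF, against 192 with siATF4 and 40.8 with siCont: on this probe set it is siATF4 that stands apart. Without probe sets that may read other transcripts the GDF15 difference was 0.041, so its call is lost. Of the 18 measured members 15 had a difference above 0.

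Interferon-inducible genes were higher with siBRAF. All 33 measured genes passed, around a median of 1.10. Of them 17 stood at least 2-fold above siATF4 and 1 below, beside 6.06% and 7.57% of all passing genes. TRIM22, an antiviral ubiquitin ligase, read 229 with siBRAF, against 15.9 with siATF4 and 6.04 with siCont, IFI44L 155 with siBRAF, against 18.5 with siATF4 and 11.5 with siCont and IFI27 55.8 with siBRAF, against 10.2 with siATF4 and 8.26 with siCont. IFIT1, which binds foreign RNA, read 212 with siBRAF, against 43.9 with siATF4 and 45.3 with siCont, and ISG15, a ubiquitin-like modifier, read 552 with siBRAF, against 209 with siATF4 and 166 with siCont. The siBRAF array from glutamine-free medium read lower on several of them, at 76.3 for IFI44L, 22.9 for IFI27 and 155 for IFIT1, and still above siATF4. With that array in place of the first, the list median was 0.67 against 1.10. The 1 lower gene was the exonuclease ISG20, at 253 with siBRAF, against 885 with siATF4 and 779.9 with siCont. MX2 and IFI44 were even on the arrays, with 209 with siBRAF, 211 with siATF4 and 199.7 with siCont for MX2.

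Transcription of these genes runs through ISGF3 at the interferon-stimulated response element. Its core was searched as GAAANNGAA, in which N is any base, and was found for 18 of 26 interferon genes (69.2%) against 6.71% of all promoters, 9.39% of those of genes higher with siBRAF and 5.55% of those of genes lower. The 3 genes with the largest differences that hold the core are shown with a single match per window in capitals. For IFIT1 the marked match lies on the other strand. The IFI27 and IFIT1 windows each hold a further match on the other strand (ttcggtttc and ttcactttc), left in small letters.
IFI44L (chr1:78620335-78620423, plus strand): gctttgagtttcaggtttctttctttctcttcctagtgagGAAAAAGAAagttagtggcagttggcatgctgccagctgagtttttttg
IFI27 (chr14:94110601-94110689, plus strand): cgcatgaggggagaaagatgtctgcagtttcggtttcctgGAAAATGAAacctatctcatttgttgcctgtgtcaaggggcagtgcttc
IFIT1 (chr10:89392481-89392569, plus strand): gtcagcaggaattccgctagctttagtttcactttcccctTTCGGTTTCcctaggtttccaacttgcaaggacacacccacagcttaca

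Antigen presentation by MHC class I was partly higher. Among 15 passing genes siBRAF was at least 2-fold above siATF4 in 4 (26.7%) and below it in 0. Of all passing genes 6.06% were higher and 7.57% lower. The list median was 0.44. HLA-E read 1232 with siBRAF, against 395 with siATF4 and 573 with siCont, HLA-B 3624 with siBRAF, against 1346 with siATF4 and 1568 with siCont and HLA-F 801 with siBRAF, against 356 with siATF4 and 382 with siCont, and the class I transcription factor NLRC5 was the fourth, at 56.99 with siBRAF, 25.04 with siATF4 and 25.6 with siCont. Without shared probe sets 2 of 10 passing members were higher and 0 lower, and the HLA-F difference was 0.73. HLA genes are alike in sequence, so a probe set for one may read another. B2M, the light chain shared by all class I molecules, read 6627 with siBRAF, 5239 with siATF4 and 4836 with siCont, and TAP2, a peptide transporter subunit, 131 with siBRAF, 183 with siATF4 and 208 with siCont.

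The genes that ATF4 is known to control did not separate the 2 siRNAs in one direction, although ATF4 itself was 2.85-fold higher with siBRAF. Among 28 passing ATF4 and CHOP targets 6 (21.4%) stood at least 2-fold higher with siBRAF and 5 (17.9%) lower. Of all passing genes 6.06% were higher and 7.57% lower. The median over the 29 measured targets was 0.00. Without shared probe sets 2 of 18 were higher and 2 lower, with a median of -0.31; of the members lost, 3 higher and 1 lower had no other probe set. The 6 higher were ATF3, NUPR1, TXNIP, SESN2, JDP2 and NFIL3. The ATF3 call is lost without shared probe sets, as given above. TXNIP, which restrains glucose uptake, read 2717 with siBRAF, against 371 with siATF4 and 204 with siCont, and the stress protein NUPR1 read 71.7 with siBRAF, against 8.12 with siATF4 and 15.7 with siCont. SESN2, an inhibitor of mTORC1, read 227 with siBRAF, against 56.3 with siATF4 and 50.3 with siCont. For these 3 the siATF4 array was near siCont or differed from it by less than siBRAF did. The 5 lower were GDF15, whose call is lost as above, CEBPB, VLDLR, EIF4EBP1 and ERO1A, of which the C/EBP family factor CEBPB read 491 with siBRAF, against 1465 with siATF4 and 1151 with siCont. TRIB3, a pseudokinase induced by ATF4, read 194 with siBRAF, 296 with siATF4 and 397 with siCont, and DDIT3, which encodes CHOP, 184 with siBRAF, 101 with siATF4 and 105 with siCont, both within 2-fold of each other between the 2 siRNAs.

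Amino acid synthesis genes were close together on the siBRAF and siATF4 arrays. Of 18 passing genes 1 was at least 2-fold higher with siBRAF (5.56%) and 0 were lower, beside 6.06% and 7.57% of all passing genes. The list median was -0.28. ASNS, which makes asparagine, read 118 with siBRAF, 138 with siATF4 and 288 with siCont, a difference of -0.22 between the siRNAs. BCAT1, which transaminates branched-chain amino acids, read 317 with siBRAF, 384 with siATF4 and 849.7 with siCont. PHGDH, which opens serine synthesis, read 105 with siBRAF, 175 with siATF4 and 388 with siCont, and PSAT1, the next enzyme of that path, 459 with siBRAF, 797 with siATF4 and 1115 with siCont. In these 4 both siRNA arrays stood below siCont, and siBRAF was the lower of them. Of the 18 passing genes 10 were below siCont on both, beside 27.3% of all passing genes, and other lists held larger shares, such as 15 of 17 aminoacyl-tRNA synthetases and 20 of 23 ribosome biogenesis genes. At least 2-fold below siCont were 8 of the 18 with siBRAF, beside 7.6% of all passing genes, and 5 with siATF4, beside 0.361%. Both rest on the same siCont array, so these counts are not independent. The 1 gene at least 2-fold apart was ALDH1L2, a mitochondrial folate enzyme, at 15.7 with siBRAF, 6.71 with siATF4 and 41.3 with siCont, where siATF4 was lowest and lay below the array median; with log2(intensity + 16) its difference was 0.48. PYCR1, the last step of proline synthesis, read 138 with siBRAF, 78.5 with siATF4 and 108 with siCont, and CBS, which starts transsulfuration, 31.8 with siBRAF, 22.9 with siATF4 and 60.2 with siCont.

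ATF4 binds the C/EBP-ATF response element (CARE), searched as TGATGNAA. It was found for 4 of 14 amino acid synthesis genes (28.6%), 5 of 14 aminoacyl-tRNA synthetases (35.7%), 4 of 17 amino acid transporters (23.5%) and 4 of 25 ATF4 and CHOP targets (16%), against 2.62% of all promoters. The letters occurred in 3.03% of promoters of genes higher with siBRAF and in 2.84% of genes lower. A promoter with the element, that of ASNS, comes from a gene that was even between the siRNAs and low on both. It is shown beside those of BCAT1 and ATF3, with CARE letters in capitals. ATF3 was 22.2-fold higher with siBRAF on a probe set that may read other transcripts. Its 2-fold call is lost without such sets.
ASNS (chr7:97872429-97872516, minus strand): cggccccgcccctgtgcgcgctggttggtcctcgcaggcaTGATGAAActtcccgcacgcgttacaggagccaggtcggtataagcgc
BCAT1 (chr12:24949102-24949189, minus strand): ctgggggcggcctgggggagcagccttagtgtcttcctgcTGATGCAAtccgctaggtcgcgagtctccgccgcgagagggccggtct
ATF3 (chr1:212565176-212565263, plus strand): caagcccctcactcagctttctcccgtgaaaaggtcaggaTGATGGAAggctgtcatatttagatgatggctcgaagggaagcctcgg

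Amino acid transporters had members on both sides. Among 20 passing genes siBRAF was at least 2-fold above siATF4 in 4 (20%) and below it in 6 (30%). Of all passing genes 6.06% were higher and 7.57% lower. The median over the 22 measured transporters was -0.37. Without probe sets that may read other transcripts 14 passed, with 0 higher, 6 lower and a median of -0.52; SLC7A5 and SLC3A2 had no other probe set, so the higher side rests on shared probe sets. SLC7A5 and SLC3A2, the light and heavy chain of the LAT1 exchanger for large neutral amino acids, read 1654 with siBRAF, 748 with siATF4 and 1544 with siCont and 742 with siBRAF, 365 with siATF4 and 682 with siCont. In both the siBRAF value was near siCont and siATF4 lay lowest, and SLC1A4, a transporter of serine and alanine, had siBRAF highest and siATF4 lowest (159 with siBRAF, 68.2 with siATF4 and 113 with siCont), a difference that was 0.50 without shared probe sets. The lower genes included SLC1A1, which carries glutamate and cysteine, at 53.6 with siBRAF, against 251 with siATF4 and 292 with siCont, the arginine and lysine transporter SLC7A1 at 199.7 with siBRAF, against 835 with siATF4 and 919 with siCont and the cystine exchanger SLC7A11 at 85.3 with siBRAF, against 313 with siATF4 and 262 with siCont. The glutamine transporter SLC1A5 read 121 with siBRAF, 236 with siATF4 and 209.7 with siCont, just within 2-fold. Aminoacyl-tRNA synthetases, which charge tRNAs, were near even: of 17 passing genes 0 were higher and 1 was lower, FARSA at 340.2 with siBRAF, against 709 with siATF4 and 711 with siCont, with a median of -0.14, no larger a share than among all genes.

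**Figure D3:**
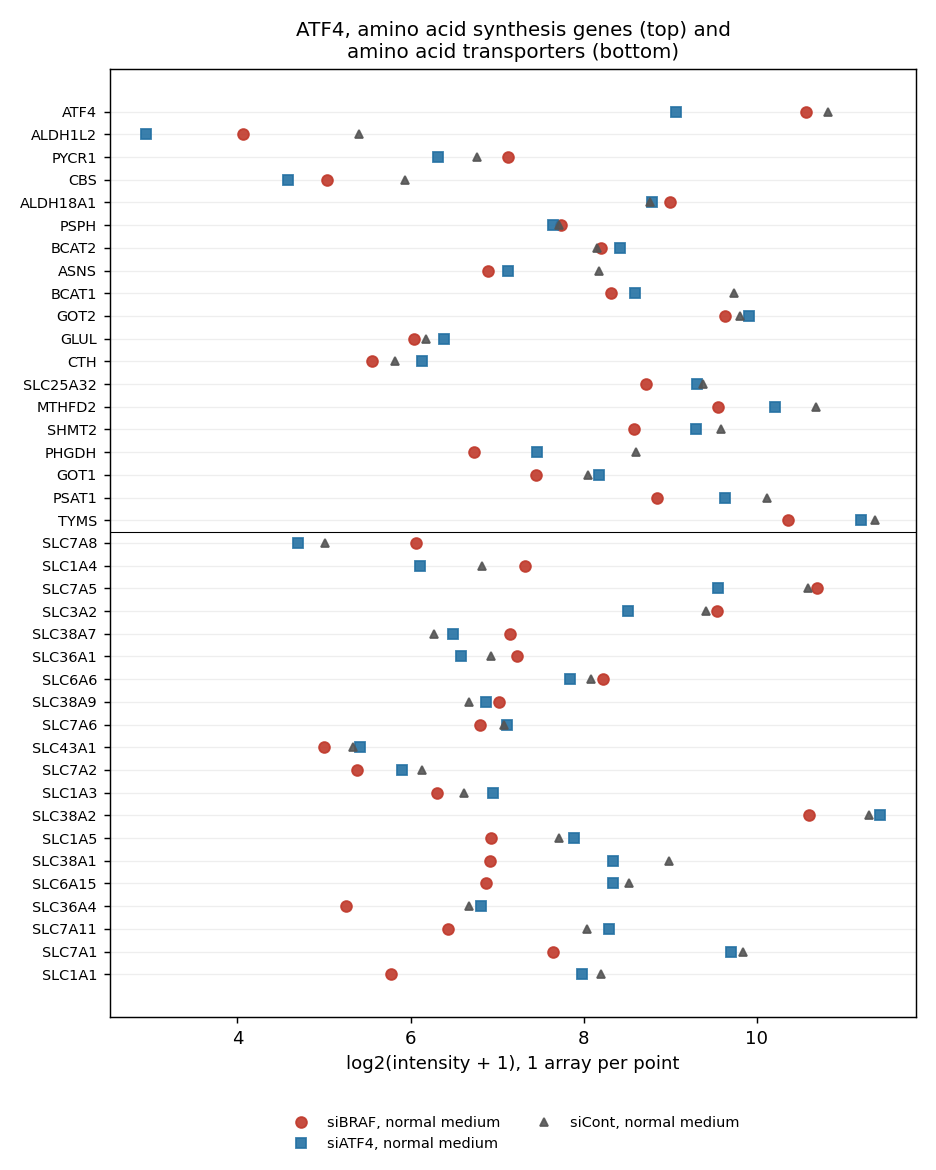
Points give log2(intensity + 1) on the siBRAF, siATF4 and siCont arrays in normal medium for ATF4, the 18 passing amino acid synthesis genes (top block) and the 20 passing amino acid transporters (bottom block), each block ordered by siBRAF minus siATF4. ASNS, BCAT1, PHGDH and PSAT1 have both siRNA points left of siCont, whereas SLC7A5 and SLC3A2 have the siBRAF point beside siCont and the siATF4 point to the left.

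Growth and energy genes were mostly lower with siBRAF or even. Ribosome biogenesis genes had a median of -0.79, against -0.02 over all passing genes, with all 23 passing members below 0. The share of all passing genes below 0 was not counted. At least 2-fold lower were 4 (17.4%), beside 7.57% of all passing genes: LYAR, WDR12, RRP9 and BYSL. LYAR, a nucleolar protein, read 258 with siBRAF, against 708 with siATF4 and 811 with siCont. Of 21 glycolysis genes 7 were lower and 1 higher, beside 7.57% and 6.06% of all passing genes, with a median of -0.66. As means of their probe sets 4 were lower and 0 higher. LDHA, which makes lactate, read 3134 with siBRAF, against 6921 with siATF4 and 7802 with siCont, the glucose transporter SLC2A3 read 75 with siBRAF, against 249.6 with siATF4 and 265 with siCont, and PDK1, which holds pyruvate out of the mitochondrion, 60.8 with siBRAF, against 195 with siATF4 and 264 with siCont (-0.80 as the mean of its probe sets, against -1.66). The exception was SLC2A1, another glucose transporter, at 172 with siBRAF, 85.5 with siATF4 and 262 with siCont, where siATF4 was lowest; without probe sets that may read other transcripts its difference was -0.089. Heat shock genes had 3 of 15 lower (20%) and 0 higher, beside 7.57% and 6.06% of all passing genes, with a median of -0.51. The co-chaperone BAG3 read 457 with siBRAF, against 1091 with siATF4 and 1062 with siCont. Without shared probe sets 1 of 11 heat shock genes was lower (9.09%), near the 7.7% of all passing genes on that setting. Their median was then 0.14, on the other side of 0. Cholesterol synthesis genes had 1 of 16 lower, IDI1 at 165 with siBRAF, against 336 with siATF4 and 310.3 with siCont, and 0 higher, with a median of -0.19, which is not above the share among all genes.

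Among secreted signalling proteins more members were lower than higher. Of 25 passing cytokine genes 11 (44%) stood at least 2-fold lower with siBRAF and 2 (8%) higher, beside 7.57% and 6.06% of all passing genes. The median over the 30 measured was -0.47. Without shared probe sets 6 of 17 were lower and 1 higher, beside 7.7% and 6.09% of all passing genes on that setting, and 3 of the lower members had no other probe set. Beside IL11, STC1 and GDF15 (0.041 without shared probe sets), the lower genes included LIF, which signals through gp130 like IL11, at 69.1 with siBRAF, against 245 with siATF4 and 199.8 with siCont, INHBA, a subunit of activin, at 628 with siBRAF, against 1834 with siATF4 and 1940.1 with siCont, the chemokine CXCL8 at 514 with siBRAF, against 1064 with siATF4 and 1261 with siCont and IL1B at 43.2 with siBRAF, against 93.2 with siATF4 and 82.9 with siCont. FST, which binds and blocks activin, had 3 distinct levels, at 115 with siBRAF, against 349 with siATF4 and 769 with siCont. The 2 higher genes were the chemokines CCL2, which attracts monocytes, at 991 with siBRAF, against 102 with siATF4 and 172 with siCont, and CXCL10, which attracts T cells, at 129 with siBRAF, against 29.3 with siATF4 and 44.99 with siCont. With the siBRAF array from glutamine-free medium in its place, the CXCL10 difference was 0.89.

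Genes of the melanocyte lineage and of the neural crest were partly higher with siBRAF. Among 18 passing lineage genes 8 (44.4%) stood at least 2-fold above siATF4 and 1 (5.56%) below, beside 6.06% and 7.57% of all passing genes. The median over the 23 measured lineage genes was 0.10. S100B, a calcium-binding protein of neural crest cells, read 1302 with siBRAF, against 113 with siATF4 and 288 with siCont, and GPNMB, a glycoprotein of melanosomes, read 2068 with siBRAF, against 519 with siATF4 and 339 with siCont. MITF had a difference of 1.21 and SOX10 one of 1.05. For S100B and SOX10 siATF4 lay below siCont and siBRAF above it, so that part of the distance lies on either side. The 1 lower gene was CDK2, a cell cycle kinase whose promoter is bound by MITF, at 143 with siBRAF, against 457 with siATF4 and 488 with siCont.

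Receptor kinases and genes tied to dedifferentiation divided. Among 20 passing genes 6 (30%) stood at least 2-fold above siATF4 and 4 (20%) below, beside 6.06% and 7.57% of all passing genes. The list median was 0.25. NGFR, the nerve growth factor receptor of neural crest-like cells, read 237 with siBRAF, against 14.3 with siATF4 and 25.9 with siCont, SOX2 1269 with siBRAF, against 286 with siATF4 and 228 with siCont and the growth factor receptor ERBB3 821 with siBRAF, against 375.1 with siATF4 and 652 with siCont. Lower with siBRAF were SOX9 at 39.04 with siBRAF, against 118 with siATF4 and 76.3 with siCont, EGFR at 30.2 with siBRAF, against 88.4 with siATF4 and 60.5 with siCont (-0.66 as the mean of its probe sets, against -1.52), MET, the receptor of hepatocyte growth factor, at 612 with siBRAF, against 1506 with siATF4 and 1446 with siCont, and ZEB1 at 89.6 with siBRAF, against 201 with siATF4 and 228 with siCont. AXL, another receptor kinase, was even, at 1214 with siBRAF, 1319 with siATF4 and 1733 with siCont.

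Extracellular matrix genes had 9 of 33 passing members at least 2-fold above siATF4 and 4 below it. Of all passing genes 6.06% were higher and 7.57% lower. The list median was 0.24. Without probe sets that may read other transcripts 22 passed, of which 3 were higher (13.6%) and 2 lower, beside 6.09% and 7.7% of all passing genes on that setting; the 3 were COL5A2, THBS1 and FBN1. Beside MGP and POSTN, MATN2, a matrilin, read 139 with siBRAF, against 4.99 with siATF4 and 4.02 with siCont, and the fibrillar collagen chain COL5A2 read 5253 with siBRAF, against 955 with siATF4 and 883 with siCont. The lower ones were COL13A1, a membrane collagen, COL6A3, FN1 and TIMP3. FN1, fibronectin, read 620.4 with siBRAF, against 1763 with siATF4 and 791 with siCont, with siATF4 the highest (-0.63 without shared probe sets, against -1.51), and COL6A3 read 8.80 with siBRAF, against 40.6 with siATF4 and 54.8 with siCont. The fibroblast markers LUM (249 with siBRAF, 69.8 with siATF4 and 51.6 with siCont) and COL3A1 (27.3 with siBRAF, 5.29 with siATF4 and 4.68 with siCont) are 2 of 6 passing fibroblast markers that were at least 2-fold higher, whereas COL1A1 read 123 with siBRAF, 106 with siATF4 and 122 with siCont and the fibroblast surface protein FAP 6.26 with siBRAF, 7.86 with siATF4 and 7.94 with siCont, below the array median. Without probe sets that may read other transcripts the COL3A1 difference was -0.15 in place of 2.17, that of LUM 0.60 in place of 1.82 and that of MATN2 0.36 in place of 4.55. The part of fibroblast RNA in the matrix genes was not tested. Keratinocyte markers had 0 of 3 passing genes apart.

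Genes of the BCL2 family, which set the threshold for mitochondrial cell death, had 2 of 14 passing members higher and 1 lower, beside 6.06% higher and 7.57% lower among all passing genes, with a median of 0.07. The lower member had no probe set outside the shared ones. BMF, a BH3-only death activator, read 125 with siBRAF, against 23.3 with siATF4 and 30.1 with siCont, and the survival protein BCL2A1 read 56.6 with siBRAF, against 14.2 with siATF4 and 31.5 with siCont. PMAIP1, the BH3-only protein NOXA, read 96.3 with siBRAF, against 689.8 with siATF4 and 420.5 with siCont. Its siATF4 value lay above siCont and its siBRAF value below. BCL2L11, which encodes BIM, read 73.6 with siBRAF, 66.95 with siATF4 and 69 with siCont, and BCL2 23.7 with siBRAF, 22.4 with siATF4 and 24.8 with siCont, both even, and MCL1, a survival protein, read 957 with siBRAF, 1447 with siATF4 and 2056 with siCont, lowest with siBRAF and within 2-fold.

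For 1015 of the 1813 genes apart the siCont array lay between siBRAF and siATF4, and in 128 of these it was at least 1.5-fold from both. The same shares were not counted over all 13310 passing genes, so the 2 counts are a description only. The clearest 8 by the smaller of the 2 steps were PTGS2, STC1, PTPRZ1, IL11, MMP1, LGR6, FAT3 and CDH19. CDH19, a cadherin of Schwann cell precursors, read 1314 with siBRAF, 89.02 with siATF4 and 242 with siCont, and PTPRZ1, a receptor phosphatase of neural and glial cells, 207 with siBRAF, 11.3 with siATF4 and 40.01 with siCont. LGR6, a receptor of R-spondins, ran the opposite way, at 8.87 with siBRAF, 84.5 with siATF4 and 26.6 with siCont. Direct comparison of the siRNAs gives such genes a larger distance than either siRNA has to siCont. In vemurafenib siATF4 minus siCont had the opposite sign for PTGS2 (-0.23), IL11 (-0.49), FAT3 (0.04) and CDH19 (0.47). It kept its sign for STC1 (1.12), PTPRZ1 (-0.79), MMP1 (0.33) and LGR6 (0.67). PTGS2 and PTPRZ1 lay below the array median on both vemurafenib arrays. In the 103 genes nearer to siBRAF, siATF4 lay at least as far from siCont as siBRAF did. The 6 with the largest distance of siATF4 from siCont were ALDH1L2, GDF15, LURAP1L, ATF4, MMP10 and TRPA1. In ALDH1L2 and TRPA1 siBRAF also differed from siCont, by -1.34 and -1.15. MMP10, the protease stromelysin-2, read 5.75 with siBRAF, 35.3 with siATF4 and 9.84 with siCont, and TRPA1, a cation channel for irritants, 7.16 with siBRAF, 55.97 with siATF4 and 17.1 with siCont. In GDF15 the sign depends on the probe set, since without sets that may read other transcripts the difference was 0.041, and that of TRPA1 was -0.02.

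**Figure D4:**
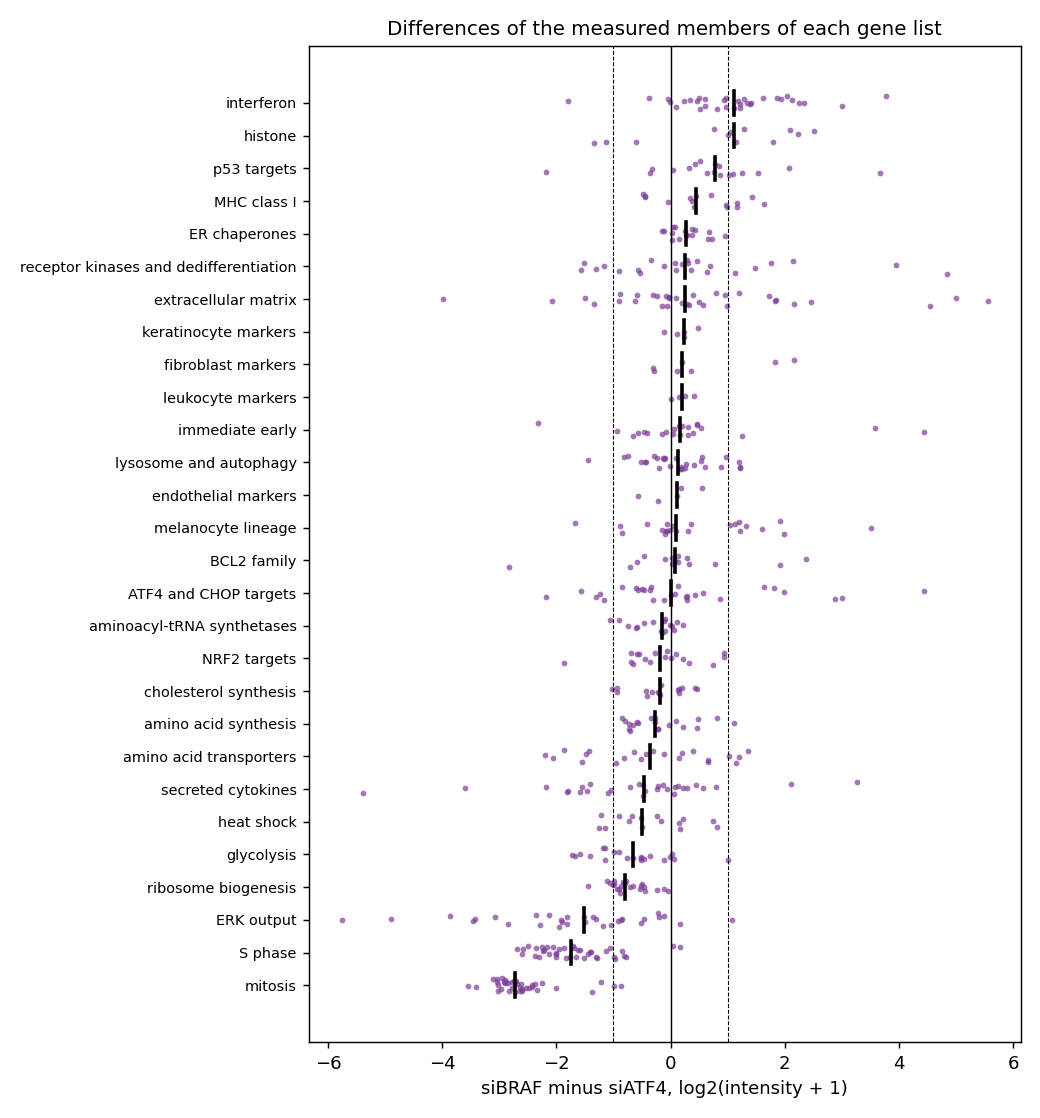
Each row is 1 of the 28 gene lists, each point a measured member and the black bar the list's median; the horizontal axis is siBRAF minus siATF4 of log2(intensity + 1), with dashed lines at 2-fold. Mitosis (median -2.72), S phase (-1.74) and ERK output (-1.52) lie lowest, interferon and histone genes (1.10 each) highest, and the ATF4 and CHOP targets spread on both sides of a median of 0.00.

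A second difference of the same siRNAs came from 4 arrays that the first did not use: the siBRAF minus siCont difference in glutamine-free medium, less the siATF4 minus siCont difference in vemurafenib. Its 2 inner differences were taken in unlike surroundings, and both arrays of the second were treated with a BRAF inhibitor, so it is not a repeat of the first. It was at least 2-fold higher for 1534 of 13182 genes (11.6%) and lower for 1347 (10.2%). Of 789 genes higher in normal medium with a value here 576 (73.0%) were higher here too, which is 37.5% of the 1534, and of 991 genes lower 478 (48.2%) were lower here, 35.5% of the 1347. Over both directions 1607 of 1780 genes had the same sign, and 33 were at least 2-fold the opposite way. The share of the same sign over all 13182 genes was not counted.

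By group, the ERK output list had a median of -2.46 in this second difference, against -1.52 in normal medium, and the interferon and p53 lists had 1.24 and 0.70, against 1.10 and 0.77. Mitotic genes had -1.13 against -2.72 and S phase genes -0.31 against -1.74. In replication genes single members even lay on the other side, with CCNE2 at 1.89 against -2.35 and PCNA at 1.34 against -0.81. The ATF4 and CHOP targets had -0.76 against 0.00 and amino acid synthesis genes -0.75 against -0.28. ASNS stood at -1.47 against -0.22, the stress kinase ERN1 at -4.22 against -0.46, and DDIT3 at -2.65 against 0.86. ERN1 read 30.3 on siCont in normal and 485 in glutamine-free medium, while siBRAF read 32.8 and 24.5. DDIT3 read 105 and 1420 on these siCont arrays, while siBRAF read 184 and 143. The siATF4 minus siCont difference in vemurafenib was -0.03 for ERN1 and -0.66 for DDIT3. For ASNS both siRNAs lay far below siCont, at -4.64 for siBRAF without glutamine and -3.18 for siATF4 in vemurafenib. Of single genes, MOXD1 (6.09), SCRG1 (5.56), IL11 (-5.54) and MMP1 (-6.83) were far apart the same way, whereas JUN, at 3.57 in normal medium, was at -0.09. JUN stayed high with siBRAF, at 3058 in normal and 2858 in glutamine-free medium, while siCont read 243 and 3049.

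**Figure D5:**
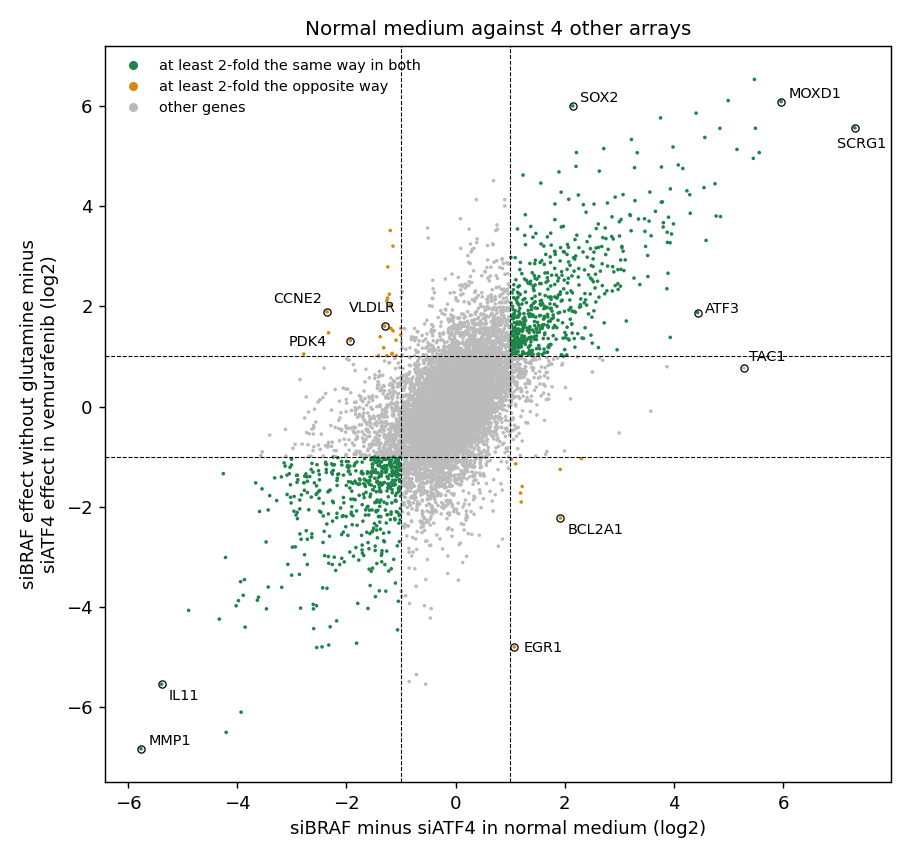
Each point is 1 of the 13182 genes with a value in both: the horizontal axis is siBRAF minus siATF4 in normal medium and the vertical axis the siBRAF effect without glutamine minus the siATF4 effect in vemurafenib, both in log2; dashed lines mark 2-fold. Most genes apart lie in the upper right (576 genes) and lower left (478 genes) fields, and 33, among them BCL2A1, EGR1 and CCNE2, lie in the opposite fields.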

How the data were processed

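RNA of A375 cells was hybridised to 8 Affymetrix human arrays, 1 per condition. The authors deposited intensities on a linear scale, which the submitters' processing notes credit to RMA, a method of background correction, normalization and probe summary; its version is not given in the sources used here. Of 54675 probe sets, 62 are controls, 41091 pair with exactly 1 symbol in the platform annotation and 1801 with several, which were not used. Log2(intensity + 1) was computed from the deposited intensities. Each gene was read from the probe set whose mean log2 value across the 8 arrays was highest, and it passes if the higher of the 2 values reaches that array's 50th percentile. Counts past 2-fold carry no test, since groups hold 1 array. Counting was tested on simulated data with seeded changes far beyond 2-fold in genes well above background. That checks the code and not the calls near 2-fold or near background. Python 3.11.15, numpy 2.4.6, pandas 2.3.3 and matplotlib 3.10.9 were used. The comparison, the 28 gene lists and the alternatives were chosen with earlier results of these data known.

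Genes were named by rule: the 12 highest and 12 lowest above the median on both arrays, 6 and 6 with the lower array below it, the 3 highest and 3 lowest of each list, 8 genes with siCont between the siRNAs, 6 nearer to siBRAF, ATF4, and the 6 with the largest opposite difference under stress, ranked by the smaller of the 2. Others were chosen after their values were seen. Precision is limited by the number of arrays. Promoter sequences are RefSeq's on GRCh38.p14, matched by symbol for 15384 genes on the array. An ETS site (CCGGAAGT), an E-box (CACGTG) and an M-box (TCATGTG) were searched as well. The ETS site was found for 0 of 18 ERK output genes, beside 6.25% of all promoters. It was in 2.42% of promoters of genes higher with siBRAF and 5.67% of genes lower. The E-box was found for 8 of 18 ribosome biogenesis genes, beside 8.9% of all. The M-box was found for 5 of 16 melanocyte lineage genes, beside 2.22% of all. Alternatives are in the closing section.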

Additional observations from a re-analysis of the deposited data

Results flagged for a closer look

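Named genes were singled out here where siBRAF minus siATF4 was at least 2-fold one way in normal medium and at least 2-fold the opposite way in the difference from the 4 arrays under stress. With 1 array a condition the contrast between the 2 differences was not tested. Medium and drug differ between the arrays, and their part was not tested.

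The survival gene BCL2A1 had 1.92 in normal medium and -2.23 under stress, and the immediate early gene EGR1 1.07 and -4.80. EGR1 read 170 and 144 on the siBRAF arrays in normal and glutamine-free medium, and 95.6 and 3403 on the siCont arrays. For the other 5 the difference turned from below 0 to above 0, which does not mean that their level rose with siBRAF. Cyclin E2, CCNE2, had -2.35 in normal medium and 1.89 under stress. It read 46.4 and 51.8 on the siBRAF arrays in normal and glutamine-free medium, and 233 and 24.4 on the siCont arrays. IL17RD (SEF), an inhibitor of growth factor signalling to ERK, had -2.33 and 1.47, and PDK4, a kinase that inhibits pyruvate dehydrogenase, -1.93 and 1.32. The lipoprotein receptor gene VLDLR had -1.30 and 1.60, and the mitochondrial gene ND6, a subunit of complex I, -1.38 and 1.39. For VLDLR siBRAF minus siCont without glutamine was -0.63 and siATF4 minus siCont in vemurafenib -2.24, so siBRAF stayed below siCont.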

How the results depend on the processing

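The 806 higher and 1007 lower genes in siBRAF minus siATF4 became 557 and 753 with log2(intensity + 16), 573 and 788 when genes had to reach the 75th percentile, 842 and 1026 without a filter, 856 and 926 after quantile normalization, 724 and 1114 with arrays centred on their median, 569 and 756 with the mean of a gene's probe sets, 817 and 1001 with probe sets chosen over 5 arrays, 616 and 778 without probe sets shared between transcripts, and 763 and 947 with the siBRAF array from glutamine-free medium. Counting every probe set by itself gave 1509 and 1784, which counts probe sets and not genes. Without shared probe sets the mitotic genes at least 2-fold lower numbered 24, where fewer members have a value, and the difference turned for COL3A1 (-0.15), GDF15 (0.041) and SLC2A1 (-0.089). With log2(intensity + 16) the genes opposite under stress numbered 19 in place of 33. The cause was not tested. Of 1554 values of 177 named genes over these alternatives 1444 moved by less than 1.5-fold, as did 445 of 504 list counts. List counts that were 0 and stayed 0 are among the 445, so that share does not measure how stable the other counts are. No replicate exists for any condition, so no paired or repeated fit could be made and no array could be left out. No paired analysis was possible because each condition has 1 array. Genes below the array median on one array have sizes that background limits.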

Other observations

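Histone genes had 8 of 12 passing members at least 2-fold higher with siBRAF than with siATF4 and 2 lower, beside 6.06% and 7.57% of all passing genes, with a median of 1.10. Without shared probe sets 5 of 7 were higher and 1 lower, since 3 higher and 1 lower member had no other probe set. H2BC21 read 325 with siBRAF, 68.4 with siATF4 and 24.6 with siCont, H1-2, a linker histone, 1041 with siBRAF, 299.6 with siATF4 and 209 with siCont, and H4C8 84.8 with siBRAF, 14.1 with siATF4 and 9.58 with siCont. In these siATF4 also lay above siCont, by less than siBRAF did. The 2 lower ones, the variant histones H2AX (381 with siBRAF, 963 with siATF4 and 881 with siCont) and H2AZ1 (2066 with siBRAF, 4511 with siATF4 and 4978 with siCont), read alike with siATF4 and siCont. H1-2 and the members in the text outside the 3 highest and lowest were chosen after their values were seen.

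Among lysosome and autophagy genes 3 of 27 passing members were higher and 1 lower, or 11.1% and 3.7%, against 6.06% and 7.57% of all passing genes, with a median of 0.13. The 3 were lysosomal proteins: the glucosidase GAA (207 with siBRAF, 88.3 with siATF4 and 60.6 with siCont), the cathepsin CTSA (1981 with siBRAF, 851 with siATF4 and 644 with siCont) and PSAP, the precursor of saposins (3474 with siBRAF, 1505 with siATF4 and 1208 with siCont). The lower one was BNIP3, a mitophagy receptor (644 with siBRAF, 1754 with siATF4 and 2229.6 with siCont). ER chaperones had 0 of 17 apart, with a median of 0.27 and DNAJB9 at 439 with siBRAF, 227 with siATF4 and 179.6 with siCont, and NRF2 targets 0 higher and 1 lower of 18, SLC7A11, with a median of -0.18.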
